A study of Homo sapiens with 8 samples.

Results

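Interferon-stimulated genes and genes of nucleic acid sensing were examined in HepG2 cells, a human hepatocarcinoma cell line, that had been transfected for 48 h with pGRHL2 or with the control plasmid pcDNA3. The members are a named list of 41 genes, matched by gene symbol to the single deposited expression table, and 40 of them were found among its 17561 genes. IRF7 was not analysed here. There were 8 RNA-seq libraries, 4 for each plasmid, which carry the numbers 1 to 4. The pGRHL2 construct drove a flag-tagged cDNA of GRHL2, a transcription factor of epithelial cells, from the EEF1A1 promoter and also carried enhanced green fluorescent protein, so that it differed from pcDNA3 in more than GRHL2. All 8 libraries came from cells that had taken up plasmid DNA with a transfection reagent, and no untransfected cells were compared. A response to plasmid DNA that both plasmids share cannot be seen in this design, and the comparison asks only whether these genes differed between the plasmids.

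Foreign DNA in the cytosol is bound by the enzyme cGAS (CGAS), whose cyclic dinucleotide product activates STING (STING1) on the endoplasmic reticulum, while double-stranded RNA is bound by sensors such as MDA5 (IFIH1) that signal through the mitochondrial adaptor MAVS. Both routes converge on the kinase TBK1 and the transcription factor IRF3, which switch on interferon genes. Secreted interferon then activates a transcription factor complex that includes STAT2 and IRF9 and binds the interferon-stimulated response element in the promoters of antiviral genes such as those of the IFIT and OAS families. Hepatoma lines are commonly used to study this response, and they differ in how much of the DNA-sensing route they express.

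The response element was looked for in RefSeq promoter windows of GRCh38.p14, each holding 250 bases before and 50 after a gene start. The letters searched were GAAANNGAAA and the reverse complement TTTCNNTTTC, with overlapping matches counted separately. Windows were available for 31 of the 40 members, and 22 of these held a match. Counted by window, 26 of 38 member windows (68.4%) held one, against 3.57% of all 35116 windows. The members had been picked as interferon-stimulated genes, so this is a description of the list. The 60-base stretches below lie upstream of a start and outside annotated exons. They are shown because the values of these genes carry the results that follow. Capitals mark the matches. HERC6, the gene with the largest difference, held no match in its window, which says only that these letters are not there.
IFIT1 (chr10:89392486-89392545, plus strand): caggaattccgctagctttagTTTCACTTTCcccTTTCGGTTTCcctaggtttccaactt
IFIT3 (chr10:89327833-89327892, plus strand): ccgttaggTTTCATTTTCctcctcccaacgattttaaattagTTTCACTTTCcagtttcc
IFIH1 (chr2:162318685-162318744, minus strand): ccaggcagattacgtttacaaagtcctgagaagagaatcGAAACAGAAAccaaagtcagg
ISG15 (chr1:1013362-1013421, plus strand): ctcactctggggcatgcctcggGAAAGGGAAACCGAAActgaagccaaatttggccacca
IFI6 (chr1:27672262-27672321, minus strand): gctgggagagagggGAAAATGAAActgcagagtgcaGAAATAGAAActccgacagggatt
EPSTI1 (chr13:42992272-42992331, minus strand): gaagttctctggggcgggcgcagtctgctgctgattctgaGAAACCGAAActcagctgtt
HERC6 (chr4:88378679-88378738, plus strand): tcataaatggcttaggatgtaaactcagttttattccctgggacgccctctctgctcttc

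A second motif, the Grainyhead element AACNGGTT (reverse complement AACCNGTT), was searched in the same windows, because it is the kind of sequence that GRHL2 binds. It was found in the window of DDX60 alone among the 31 members with windows. Counted by window, this was 1 of 38 member windows (2.63%), against 1.73% of all windows. No window was available for CGAS, STING1, IRF3, IFIT2, IFITM2, OAS2, OASL, USP18 and TRIM22.

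The values in the table are on a log2 scale, from which the log2 of transcript length appears to have been subtracted, so that 1 unit is read here as a 2-fold difference. When log2 of the mean transcript length in kilobases was added back for 17537 genes, the lowest level in each of 10 length classes lay between 0.06 and 0.25, whereas in the deposited values it ran from 0.71 for the shortest class to -3.76 for the longest. The depth behind each value is unknown, as the table gives no read counts. Averaging a gene over the pGRHL2 and pcDNA3 libraries of 1 number gave an equal result for all 4 numbers, which makes the values of a pair mirror each other around 1 level. A low pcDNA3 value therefore cannot be told apart from a high pGRHL2 value of the same number, and the 4 pair differences (pGRHL2 minus pcDNA3) are the measurements tested. In such values, groups that do not overlap and 4 differences of 1 sign are the same observation. The study describes its replicates as biologically independent, and the labels do not say what a number shared by the plasmids marks. GRHL2 itself checked the labels: its pair differences were 8.97, 9.51, 10.26 and 9.18 in pairs 1 to 4. The 8 hepatocyte markers examined had levels between 9.83 and 17.1, and all 8 were above 0 in pair 2, by a median of 0.33. Of 6 leukocyte markers, LYZ (13.3), CD14 (4.02) and CD79A (4.17) were in the table and the other 3 were not analysed here. Of 5 endothelial or fibroblast markers, 4 were in the table and none was called. COL1A1 had a log2 FC of 0.20 (adjusted limma p of 0.0838), and PECAM1, VWF and PDGFRB had log2 FC between -0.0058 and 0.0061. The part of these markers in the results was not tested.

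HERC6 and STING1 were the only members called higher in pGRHL2 by limma at an adjusted p under 0.05, and no member was called lower. These were 2 of 40 members (5.00%), beside 1.69% of all 17561 genes called higher. The 0 of 40 called lower stand beside 0.501% of all genes. Among the 10858 genes with a mean of at least 5, the same fit called 73 higher and 81 lower. Of the 34 members at that level it called 2 and 0. At an unadjusted limma p under 0.05, 9 members were higher (22.5%, against 9.17% of all genes) and 2 were lower (5.00%, against 6.78% of all genes). Changes were small throughout, since log2 fold changes (log2 FC) of the members ran from -0.17 to 0.37.

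HERC6 encodes a HECT-type ubiquitin ligase and lies on chromosome 4 from 88378739 to 88443097 (hg38), next to HERC5. Its log2 values in pcDNA3 libraries 1 to 4 were 6.26, 6.17, 6.20 and 6.22, and those in pGRHL2 libraries 1 to 4 were 6.53, 6.62, 6.59 and 6.57. Every pGRHL2 value lay above every pcDNA3 value. The log2 FC was 0.37 ± 0.08 (SD, n = 4 pairs), a 1.29-fold difference, at an adjusted limma p of 0.0101. HERC5, the main ligase that attaches ISG15 to proteins in human cells, lies on the same chromosome from 88457119 to 88506163 and had a log2 FC of -0.05 ± 0.09 (95% interval -0.17 to 0.06).

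STING1, the adaptor of cytosolic DNA sensing, lies on chromosome 5 from 139475533 to 139482935 (hg38). Its log2 values were 5.71, 5.80, 5.78 and 5.80 in pcDNA3 libraries 1 to 4, and 6.10, 6.01, 6.03 and 6.01 in pGRHL2 libraries 1 to 4. The groups did not overlap, and pair 1 had the largest difference (0.39, against 0.21 to 0.25 in the others). The log2 FC was 0.27 ± 0.08 (SD, n = 4 pairs), a 1.20-fold difference, at an adjusted limma p of 0.0283. Both calls were narrow. STING1 lost its call whichever pair was left out (adjusted limma p between 0.0686 and 0.151), HERC6 lost it without pair 2 or pair 3 (0.0538 and 0.0565), and both lost it when limma was run without a trend of variance on level (0.0946 and 0.0771), although neither direction changed.

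**Figure D1:**
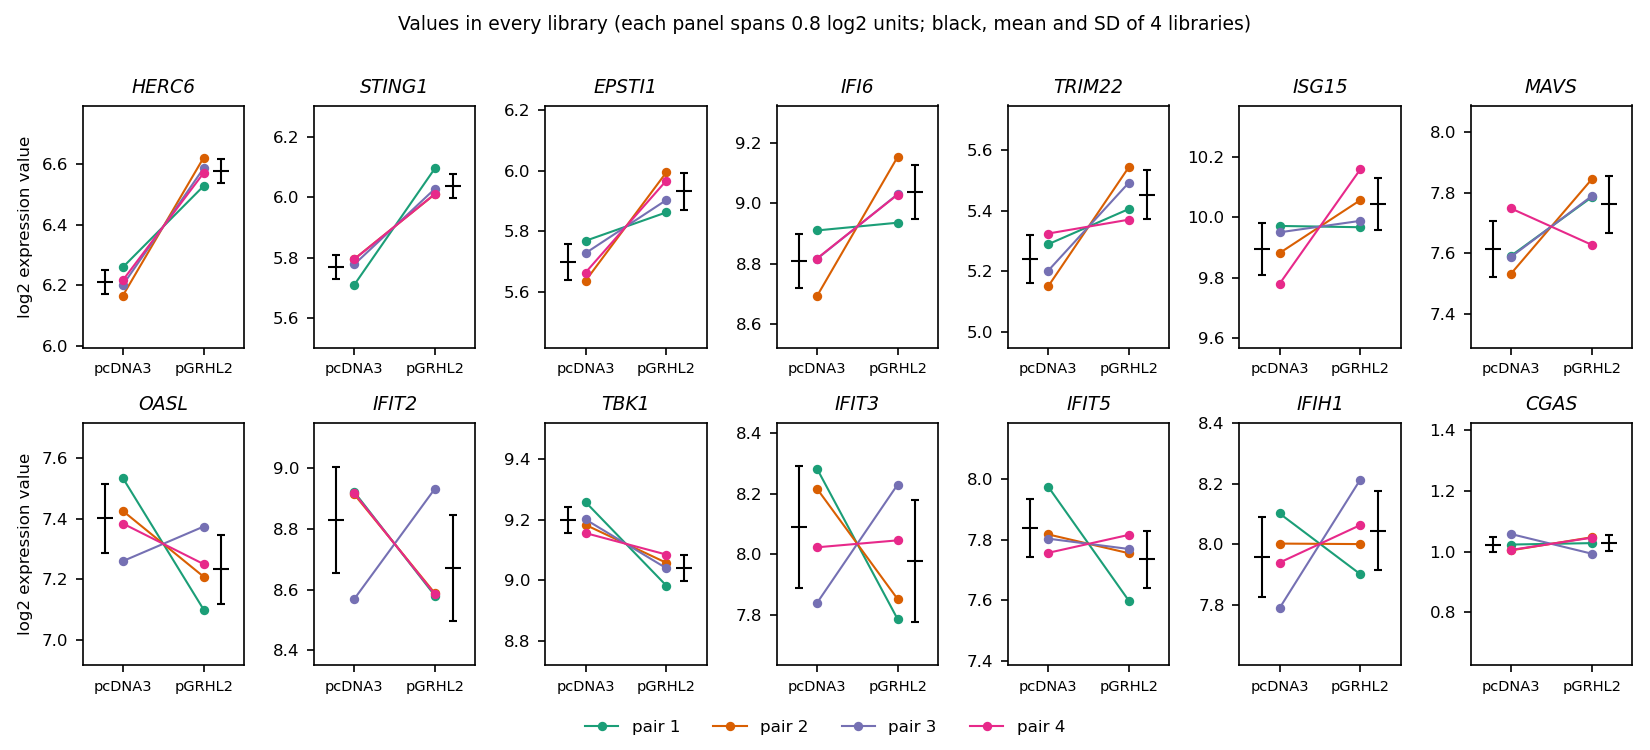
Log2 expression values of 14 members in each pcDNA3 and pGRHL2 library, with lines joining same-numbered libraries and black bars giving the mean and SD of 4 libraries. HERC6 and STING1 rise in every pair, TBK1 is lower in every pair, and the IFIT genes and IFIH1 cross between pairs.

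No other sensor or adaptor passed the test. CGAS, the DNA sensor directly upstream of it, had pcDNA3 values of 1.02, 1.00, 1.06 and 1.01 and pGRHL2 values of 1.03, 1.05, 0.99 and 1.05. This is a very low level, with 10.3% of all genes lower, and the groups overlapped. Its log2 FC was 0.01 ± 0.05 (95% interval -0.04 to 0.05). IFI16, a nuclear DNA sensor, had the lowest level of all members (-0.79), and its pair differences stayed between -0.03 and 0.02. Weakly expressed members varied little in this table. The study's transformation of the counts (rlog) shrinks differences of genes with few reads, so a narrow interval here does not show a precise measurement. Read counts that would give the precision were not analysed here.

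TBK1, the kinase downstream of STING and MAVS, was the only member lower in all 4 pairs. Its values were 9.26, 9.18, 9.20 and 9.16 in pcDNA3 libraries 1 to 4, and 8.98, 9.06, 9.04 and 9.09 in pGRHL2 libraries 1 to 4. The groups did not overlap, but the log2 FC of -0.16 ± 0.09 (SD, n = 4 pairs) did not pass limma over all genes (adjusted p of 0.232). One of 40 members lower in every pair compares with 10.5% of all genes.

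MAVS had values of 7.59, 7.53, 7.59 and 7.75 in pcDNA3 libraries 1 to 4, and 7.78, 7.84, 7.79 and 7.63 in pGRHL2 libraries 1 to 4. Pair 4 ran against the other 3, and the log2 FC was 0.15 ± 0.19. IFIH1, the sensor of long double-stranded RNA, had values of 8.10, 8.002, 7.79 and 7.94 in pcDNA3 and 7.90, 8.0001, 8.21 and 8.06 in pGRHL2. It was lower in pair 1 (-0.20) and higher in pair 3 (0.42), giving a log2 FC of 0.09 ± 0.26 (adjusted limma p of 0.725).

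The transcription factors that carry the signal were all slightly above 0 on average and none was called. IRF3, which TBK1 phosphorylates, was higher in 4 of 4 pairs with a log2 FC of 0.10 ± 0.06 (adjusted limma p of 0.437). Counting did not use strand, and 19.3% of the exon bases of IRF3 overlap BCL2L12 on the opposite strand. The overlap with other genes was 22.9% for IRF1, with IRF1-AS1 among them, and 27.2% for IRF9, so these values are uncertain. IRF1, STAT2 and IRF9 had log2 FC of 0.14 ± 0.15, 0.05 ± 0.10 and 0.07 ± 0.11, each no larger than its SD.

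**Figure D2:**
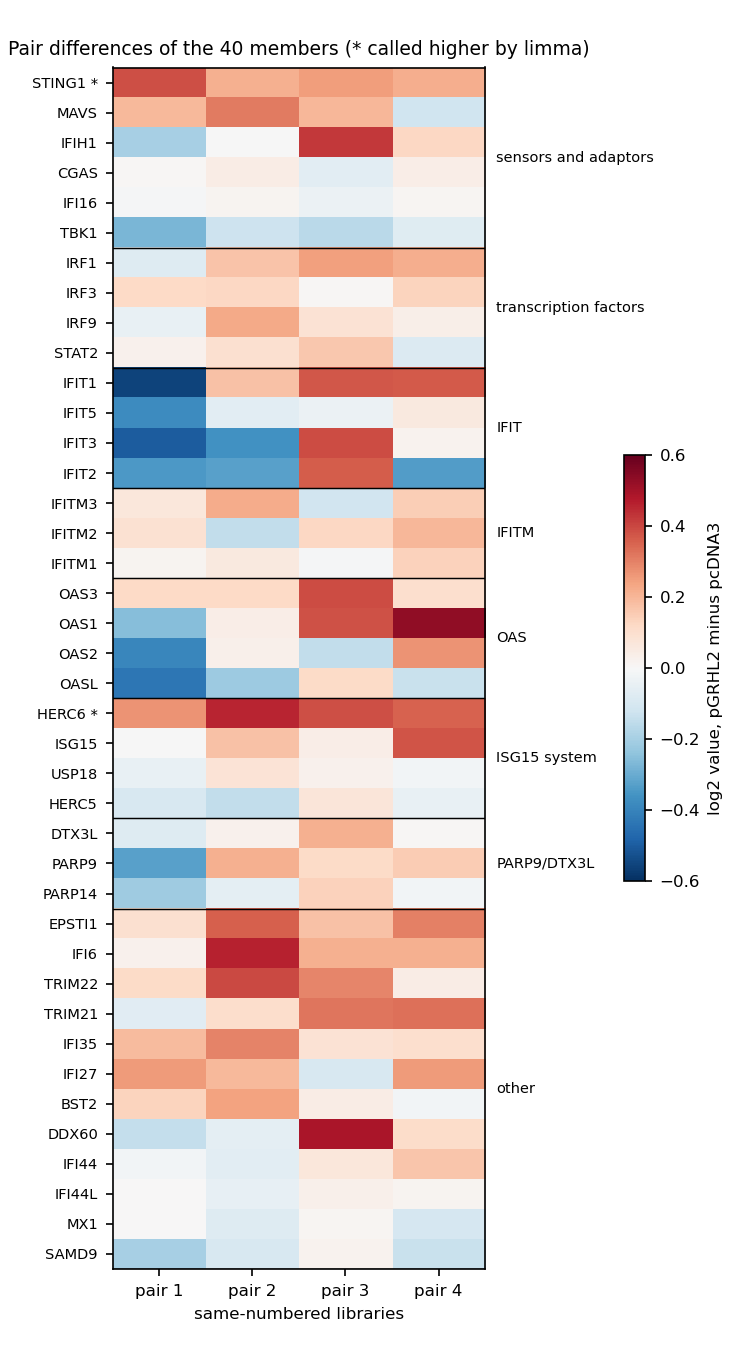
Differences of the log2 values (pGRHL2 minus pcDNA3) in pairs 1 to 4 for the 40 members, grouped by role, with red for higher and blue for lower in pGRHL2. The 4 IFIT genes are all below 0 in pair 1, whereas HERC6 and STING1 are above 0 in every pair.

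The IFIT genes, whose proteins bind foreign RNA and hold back its translation, included the members with the widest swings, IFIT1 and IFIT3, with SD of the pair differences of 0.44 and 0.40. All 4 lie on chromosome 10 (hg38), with IFIT2 at 89283694 to 89309271, IFIT3 at 89327307 to 89377473, IFIT1 at 89392546 to 89406487 and IFIT5 at 89414568 to 89421605. In pair 1 all 4 genes were lower in pGRHL2 (median of -0.44), and in pair 3 the median was 0.37, with 3 of 4 genes higher. IFIT1, singled out after its values were seen, had pair differences of -0.55, 0.18, 0.37 and 0.37, which average to 0.09 ± 0.44 (adjusted limma p of 0.824). A 95% interval of -0.23 to 0.41 leaves room for a change in either direction.

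IFIT3 had values of 8.28, 8.22, 7.84 and 8.02 in pcDNA3 libraries 1 to 4, and 7.79, 7.85, 8.23 and 8.05 in pGRHL2 libraries 1 to 4. The groups overlapped over nearly their whole range, and the log2 FC was -0.11 ± 0.40. IFIT2 had values of 8.92, 8.91, 8.57 and 8.92 in pcDNA3 and 8.58, 8.59, 8.93 and 8.58 in pGRHL2. Pair 3 was the exception to 3 nearly equal decreases, so that the log2 FC of -0.16 ± 0.35 describes no single pair. A share of 13.6% of the exon bases of IFIT2 is shared with other annotated genes. IFIT5 had values of 7.97, 7.82, 7.80 and 7.76 in pcDNA3 and 7.60, 7.75, 7.77 and 7.82 in pGRHL2, a log2 FC of -0.10 ± 0.19 to which pair 1 contributed most.

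The OAS genes encode enzymes that make oligoadenylates in response to double-stranded RNA and so activate RNase L. As with the IFIT genes, their median was lowest in pair 1 (-0.32) and highest in pair 3 (0.25). OAS3 was higher in 4 of 4 pairs with a log2 FC of 0.18 ± 0.14 (adjusted limma p of 0.223), OAS1 had a log2 FC of 0.17 ± 0.35 and OAS2 one of -0.06 ± 0.28. OASL, an OAS-like protein without the enzyme activity, had the lowest log2 FC of the list, -0.17 ± 0.23. Its values were 7.53, 7.43, 7.26 and 7.38 in pcDNA3 and 7.10, 7.21, 7.37 and 7.25 in pGRHL2. Only pair 3 was above 0, and the limma adjusted p was 0.375.

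ISG15, a ubiquitin-like protein that is among the most abundant products of the interferon response, had values of 9.97, 9.88, 9.95 and 9.78 in pcDNA3 libraries 1 to 4, and 9.97, 10.06, 9.99 and 10.16 in pGRHL2 libraries 1 to 4. The difference was near 0 in pairs 1 and 3 and reached 0.38 in pair 4. The log2 FC was 0.15 ± 0.17, at an adjusted limma p of 0.377. USP18, which removes ISG15 from proteins and dampens interferon receptor signalling, had a log2 FC of 0.01 ± 0.06. Of the USP18 transcripts, 15.5% of 100-base stretches also occur in other genes, so that its value is uncertain.

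The IFITM genes encode membrane proteins that block virus entry. IFITM3 had the highest level of all members (13.4, above 99.5% of all genes). The log2 FC was 0.08 ± 0.14 for IFITM3, 0.07 ± 0.15 for IFITM2 and 0.05 ± 0.06 for IFITM1, and none was called. From 6.81% to 17.9% of the 100-base stretches of these 3 genes occur in another gene. Those genes are the other IFITM genes and an overlapping annotated gene without a symbol. IFITM1 also shares 31.6% of its exon bases with other annotated genes and IFITM3 16.3%, so these values are uncertain. PARP9 and DTX3L, which are transcribed in opposite directions from a shared promoter region and whose proteins act together, had log2 FC of 0.04 ± 0.25 and 0.04 ± 0.12. PARP14, farther along the same chromosome, had a log2 FC of -0.04 ± 0.15.

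Among the remaining interferon-stimulated genes, EPSTI1, IFI6 and TRIM22 came closest to the called members. EPSTI1, an interferon-induced gene first described in epithelial cells beside stroma, had values of 5.77, 5.64, 5.73 and 5.66 in pcDNA3 libraries 1 to 4, and 5.86, 5.99, 5.90 and 5.97 in pGRHL2 libraries 1 to 4. Its groups did not overlap, and its log2 FC was 0.23 ± 0.12 with an adjusted limma p of 0.0667. This call was gained after the libraries were rescaled to the same total without GRHL2 (0.0403).

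IFI6, a small membrane protein with antiviral activity, had values of 8.91, 8.69, 8.82 and 8.82 in pcDNA3 and 8.94, 9.15, 9.03 and 9.03 in pGRHL2. Pair 2 contributed most (0.46) and pair 1 almost nothing (0.03), giving a log2 FC of 0.23 ± 0.18 and an adjusted limma p of 0.176. A share of 23.1% of its exon bases overlaps LINC02574. TRIM22, an antiviral ubiquitin ligase, had values of 5.29, 5.15, 5.20 and 5.32 in pcDNA3 and 5.41, 5.54, 5.49 and 5.37 in pGRHL2. It was higher in 4 of 4 pairs, with a log2 FC of 0.21 ± 0.16 (adjusted limma p of 0.116).

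In all, 8 members were higher in 4 of 4 pairs, namely HERC6, STING1, EPSTI1, IFI6, TRIM22, OAS3, IFI35 and IRF3. This was 20.0% of the list, beside 13.4% of all genes. All 8 were among the 34 members with a mean of at least 5, a level at which 973 of 10858 genes were higher in 4 of 4 pairs. IFI35, TRIM21 and IFI27 had log2 FC of 0.17 ± 0.10, 0.17 ± 0.19 and 0.15 ± 0.17, with unadjusted limma p of 0.0224, 0.0456 and 0.0380. BST2, which tethers virus particles to the cell surface, and DDX60, a helicase of RNA sensing, each had a log2 FC of 0.10, with SD of 0.11 and 0.28. DDX60 differed by 0.49 in pair 3 and by -0.14 in pair 1. SAMD9 had a log2 FC of -0.10 ± 0.09. MX1, an antiviral GTPase, and IFI44L were weakly expressed, at levels of 2.20 and 1.09, and IFI44 reached 4.83. Their log2 FC lay between -0.04 and 0.04.

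**Figure D3:**
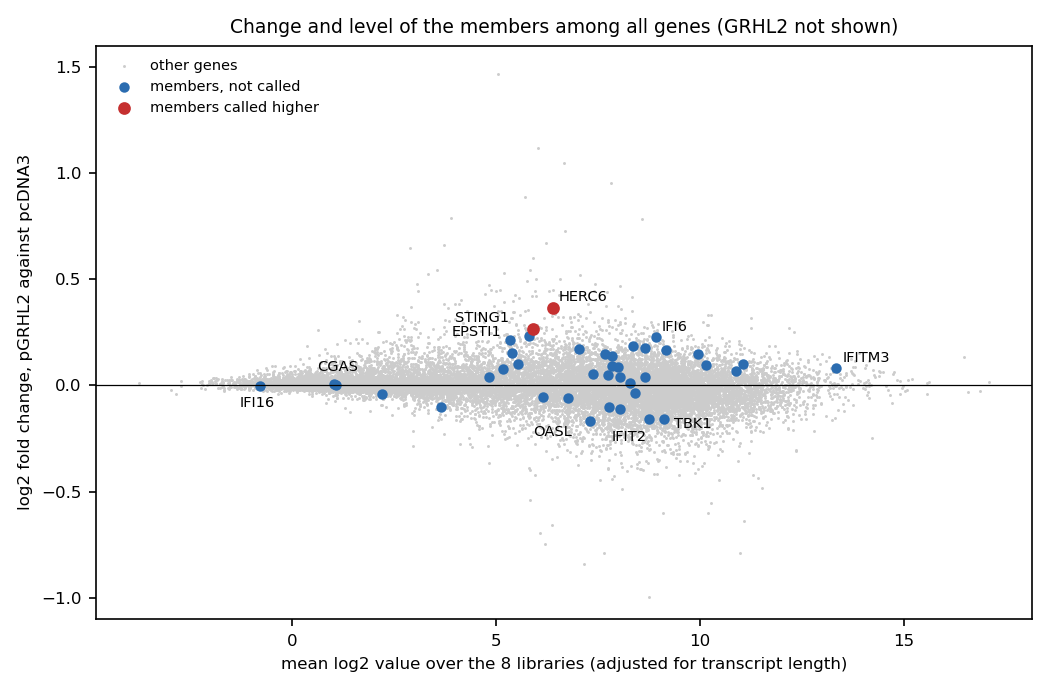
Log2 fold change (pGRHL2 against pcDNA3) plotted against the mean log2 value over 8 libraries, with all other genes in grey, members not called in blue and members called higher in red. HERC6 (0.37) and STING1 (0.27) stand at the upper edge of the members, and the weakly expressed members CGAS and IFI16 lie near 0.

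Taken by level, 6 of the 40 members had a mean value under 5 and 34 a mean of at least 5. The pair differences of the 6 weak members had SD between 0.02 and 0.10, against a median SD of 0.15 for the other 34. When members were ordered by level, on the length-adjusted log2 scale, 27 of the 39 neighbouring pairs of genes had ranges over the 8 libraries that overlapped. Only 3 members, IFITM3, BST2 and IFITM2, lay above 90% of all genes.

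The mean pair difference was above 0 for 29 of 40 members (72.5%), compared with 51.5% of all genes. The median log2 FC of the members was 0.07, beside 0.0017 over all genes, and it was 0.03 without pair 3. Among genes with a mean of at least 5 the medians were 0.09 for 34 members and -0.01 for 10858 genes. For 30 of 40 members the SD of the pair differences was larger than the mean difference.

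The median difference of the members was -0.01 in pair 1, 0.07 in pair 2, 0.11 in pair 3 and 0.10 in pair 4, while the medians over all genes lay between 0.00078 and 0.0059. Members above 0 numbered 18 in pair 1, 26 in pair 2, 32 in pair 3 and 29 in pair 4 (45.0%, 65.0%, 80.0% and 72.5%). Of all genes, 51.8%, 52.3%, 51.6% and 51.5% were above 0 in pairs 1 to 4. From pair 1 to pair 3, 18 members went from below 0 to above 0. GRHL2 had its smallest difference in pair 1 (8.97) and its largest in pair 3 (10.26), and its part in these values was not tested.

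**Figure D4:**
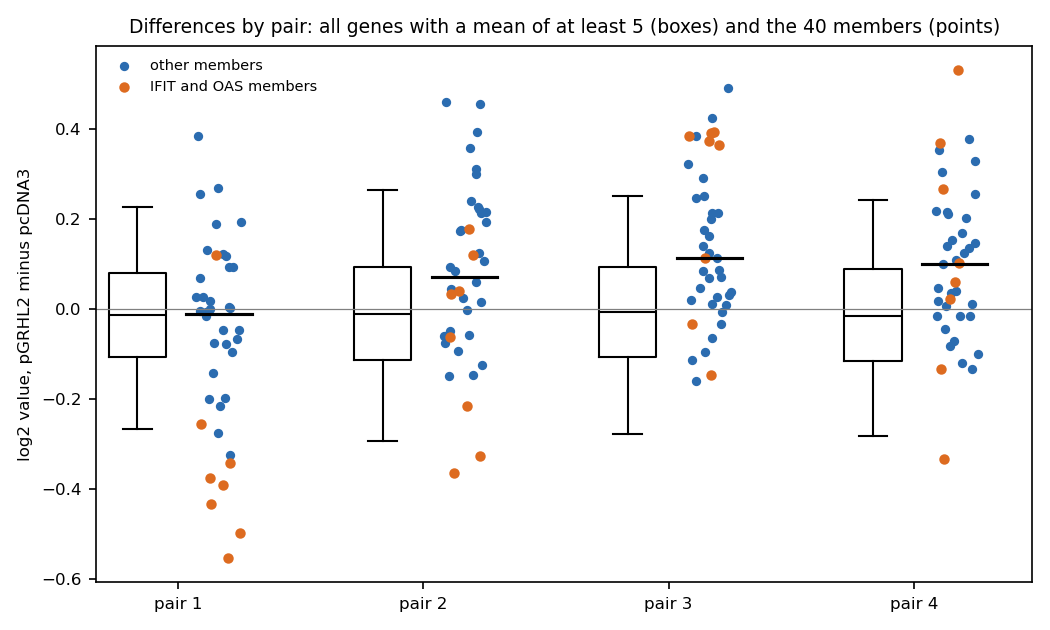
Differences of log2 values (pGRHL2 minus pcDNA3) by pair, with boxes for all genes with a mean of at least 5 (median, quartiles, whiskers at the 5th and 95th percentiles) and points for the 40 members, whose median is a black line. In pair 1, 7 of the 8 IFIT and OAS members (orange) lie below 0, and in pair 3, 6 of 8 lie above 0. These families and pairs were singled out after their values were seen. Of all genes, 51.8% were above 0 in pair 1 and 51.6% in pair 3.

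The pairs were also compared with one another across members. Over the 34 members with a mean of at least 5, Pearson's r of the differences was 0.64 for pairs 1 and 2, -0.09 for 1 and 3, 0.14 for 1 and 4, -0.03 for 2 and 3, 0.44 for 2 and 4, and 0.12 for 3 and 4. Over all 10858 genes of that level the values, in the same order, were 0.62, 0.45, 0.42, 0.40, 0.27 and 0.29. These genes include the transfected GRHL2, whose differences ran from 8.97 to 10.26, and such a gene raises r. Only 370 of the 43432 differences at that level were larger than 0.5 in size. Values of r without GRHL2 were not computed, so those over all genes cannot be set against those of the members. All of them are descriptions across genes, which share the libraries and their depth and are not independent. Split by promoter, the 22 members with a match to the searched letters in a window had medians of -0.04, 0.04, 0.09 and 0.12 in pairs 1 to 4. The 9 members whose windows held no match had medians of -0.01, 0.17, 0.16 and 0.04. Only 1 exact spacing was searched, so no match says only that these letters are not there.

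Other genes of the pathway were taken from a list of 100, of which 81 were in the table. APOBEC3C, a cytidine deaminase that restricts retroviruses, was the single gene called higher by limma (1.23% of the list, against 1.69% of all genes), and 0 were called lower (against 0.501%). No pathway gene was called without pair 1, pair 2 or pair 3. At an unadjusted p under 0.05, 8 were higher (9.88%, against 9.17% of all genes) and 2 were lower (2.47%, against 6.78%). The values of APOBEC3C were 7.997, 7.96, 8.005 and 8.05 in pcDNA3 libraries 1 to 4, and 8.33, 8.37, 8.32 and 8.27 in pGRHL2 libraries 1 to 4, which did not overlap. The log2 FC was 0.32 ± 0.08 (SD, n = 4 pairs), at an adjusted limma p of 0.0299. APOL6 and APOL1, of the apolipoprotein L family, came next with log2 FC of 0.34 ± 0.22 and 0.21 ± 0.03 and adjusted limma p of 0.0545 and 0.0834.

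Of the interferon ligands listed, IFNL1, IFNL2 and IFNL3 were in the table and the other 9 were not analysed here. Their levels were low, at 3.07, 0.39 and 1.22, and their log2 FC lay between -0.05 and 0.0048. The 9 receptor and Janus kinase genes had log2 FC between -0.03 and 0.08, none called. SOCS1 and SOCS3, feedback inhibitors of Janus kinases singled out after their values were seen, were below 0 in 4 of 4 pairs, with log2 FC of -0.11 each and adjusted limma p of 0.206 and 0.231. In 4 of 4 pairs, 13 of the 81 genes were higher (16.05%, against 13.4% of all genes) and 5 were lower (6.17%, against 10.5%). Over all 81 genes the median log2 FC was 0.03, and 55 were above 0 (67.9%, against 51.5% of all genes).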

How the data were processed

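Paired-end RNA-seq with an mRNA library kit was performed on 8 HepG2 libraries, 4 per plasmid. By the study's methods the authors mapped reads to hg38, counted those over exons without strand, dropped weakly covered genes, transformed the counts with rlog (DESeq2) and, as the methods word it, divided by mean transcript length. The floor of the values over length classes is that of a subtraction of log2 length. The submitters' processing notes name HISAT2 2.2.1, HTSeq 0.9.1 and DESeq2 1.40.2. The deposited file is called FPKM, but its values are log2: 3.71% are below 0 and the range is -3.76 to 17.3. Rlog shrinks differences of genes with few reads. Library medians lay between 6.71 and 6.73. One value had a stray character, which was removed. In all 17561 genes the pair means were equal for the 4 numbers, a step that is not given in the sources used here. The pairing comes from this structure, which makes deviations of same-numbered libraries mirror images.

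All genes were fitted with limma 3.58.1 in R 4.3.3 (lmFit, eBayes with trend, replicate number as a block, Benjamini-Hochberg adjustment over 17561 genes, two-sided). The code was checked on simulated data. Their spreads were drawn from the fitted trend of variance on level, so whether that trend suits these values was not tested. Coordinates, exon overlap and shared 100-base stretches came from GENCODE 44 (hg38), and promoters from RefSeq (GRCh38.p14). Members, lists and tests were chosen with earlier results of these data known. Values in every library are given for called members, for the 5 highest and 5 lowest log2 FC, and for CGAS, STING1, IFIH1, MAVS and ISG15. Among pathway genes, those called are named and, with fewer than 3 called, the 3 with the lowest p. Alternatives were no block, no trend, robust eBayes, 2 other scalings, a mean of at least 5, a stricter threshold and leaving out each pair.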

Additional observations from a re-analysis of the deposited data

Results flagged for a closer look

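The 4 pair differences of each member, of GRHL2 and of the members' median (42 results) were searched for a pair that stood far from the other 3, by the ratio of its gap to the whole range set against Dixon's critical value for 4 values. Chance gives about 1 in 20. There were 3 such results, all in pair 3.

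IFIT2 had a pair 3 difference of 0.3648, and its other 3 lay between -0.34 and -0.33. OAS3 had one of 0.3935, and its other 3 lay between 0.10 and 0.12. IRF3 differed by 0.0089 in pair 3, against 0.12 to 0.14. IFIT2 and OAS3 thus stood out upward and IRF3 downward, and the cause was not tested.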

How the results depend on the processing

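With no replicate block, 1821 genes were called higher and 1427 lower, against 297 and 88 with it. Members called were then 8 higher and 2 lower, and pathway genes 9 and 2. The unblocked values are mirror images within pairs, so their residuals are not independent. Without a trend of variance on level, 4 genes were called higher and 2 lower, with 0 members and 0 pathway genes (2721 genes had an unadjusted limma p under 0.05). After rescaling without GRHL2, 495 genes were higher and 84.2% of calls were higher, against 77.1%. Pathway genes called higher were then 2, as with robust eBayes. With a mean of at least 5, 63 genes were higher and 43.8% of calls were higher. At an adjusted p under 0.01, 77 genes were higher and 10 lower, with 0 members and 0 pathway genes.

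Leaving out 1 pair at a time left 79 to 156 genes higher and 8 to 68 lower, 0 to 1 members and 0 to 1 pathway genes higher, and a members' median of 0.03 to 0.09. HERC6 was the member still called, without pair 1 or pair 4. Log2 FC that changed sign ranged from -0.00666 to 0.0294 for CGAS, -0.0102 to 0.00631 for IFI16, -0.0261 to 0.182 for IFIH1, -0.00240 to 0.307 for IFIT1, -0.28 to 0.0165 for IFIT3, -0.169 to 0.0510 for OAS2, -0.0120 to 0.0313 for USP18, -0.0193 to 0.16 for PARP9, -0.0154 to 0.0812 for DTX3L, -0.0969 to 0.0212 for PARP14, -0.00295 to 0.0737 for IFI44, -0.0103 to 0.0167 for IFI44L and -0.0311 to 0.18 for DDX60. IFI16 was 0.0098 after rescaling and IFI44L -0.0043 after median centring. Over the other settings, 221 of 234 values of single members kept direction and side of the threshold. Most of this was fixed in advance. No block, no trend, robust eBayes and the level filter leave each log2 FC as it was, so direction could not change there. Only 2 of 40 members had a call to lose. The settings for pathway genes were chosen after seeing the data. Causes were not tested, and the unknown depth limits what can be said of weakly expressed members.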
